A study of Mus musculus with 6 samples.

Results

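The genes described here are 32 genes of the ATF4 pathway, the transcriptional arm of the integrated stress response, in sensory ganglia of fasted and fed mice. They were chosen by symbol, from the transcription factor itself through its feedback regulators to the enzymes and carriers that make and import amino acids. All 32 were found among the 54242 gene symbols of the table. Of these, 30 reached a mean of 1 TPM (transcripts per 1000000, a share of the library corrected for transcript length) over the 6 libraries and entered the test across 15097 genes. The other two, Stc2 and Slc7a11, lay below that level and are given as values only.

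The libraries came from dorsal root ganglia, where the cell bodies of sensory neurons lie beside the spinal cord, at the lumbar levels L4-6 of male C57bl/6 mice aged 8-10 weeks. The fasted diet was 10 days of intermittent fasting (3 libraries), and the fed diet was food ad libitum (3 libraries). In both diets the ganglia were digested with Dispase II, collagenase and papain and the cells passed over a BSA gradient that enriches neurons, so the RNA is that of freshly dissociated cells. The labels give a sacrifice after 24 hours without naming the event it follows, and do not state the feeding schedule or whether a library is 1 animal or a pool. The p-values therefore rest on the variation between these samples, part of which may be technical.

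The integrated stress response begins with kinases that phosphorylate the initiation factor eIF2. GCN2 senses uncharged tRNA when amino acids run short, and PERK senses unfolded protein in the endoplasmic reticulum. Phosphorylated eIF2 slows translation in general but favours that of the Atf4 message, and the ATF4 protein then binds, as a dimer with C/EBP family proteins, to a composite element in its target genes. The targets include amino acid transporters, enzymes of asparagine, serine and proline synthesis, and mitochondrial folate enzymes. Because ATF4 is controlled at translation, the messages of its targets are the usual readout of the pathway in RNA data.

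The composite element, searched for as TGATGNAA (N stands for any base; TTNCATCA on the other strand), is shown because it is the sequence through which ATF4 is known to act. Of the 28 members with a promoter window in the RefSeq table (GRCm38.p6), 7 held it in the 250 bases before the start, or 25.0%, against 3.91% of the 27025 genes with a window. The members were listed as genes of the ATF4 pathway, so the higher share goes with that choice and is not a result about the set. A match describes the letters and is not a measured binding site, and no match says only that these letters are not in this window. Each stretch below reads 5′ to 3′ on the gene's strand, with the motif in capitals and up to 26 bases on either side.
Asns, chr6:7693210-7693258, minus strand: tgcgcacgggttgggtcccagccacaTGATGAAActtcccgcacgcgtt
Chac1, chr2:119351023-119351082, plus strand: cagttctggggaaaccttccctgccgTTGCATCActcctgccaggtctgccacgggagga
Nupr1, chr7:126625547-126625606, minus strand: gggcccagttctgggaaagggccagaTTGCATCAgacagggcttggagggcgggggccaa
Pck2, chr14:55540137-55540196, plus strand: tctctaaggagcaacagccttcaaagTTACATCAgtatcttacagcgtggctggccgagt
Pycr1, chr11:120643818-120643877, minus strand: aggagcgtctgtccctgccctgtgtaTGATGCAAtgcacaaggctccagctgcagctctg
Slc7a11, chr3:50443627-50443705, minus strand: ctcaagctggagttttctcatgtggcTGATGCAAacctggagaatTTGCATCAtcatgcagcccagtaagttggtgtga
Vldlr, chr19:27216794-27216853, plus strand: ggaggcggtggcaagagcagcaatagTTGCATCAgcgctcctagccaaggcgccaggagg

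Counted from the RefSeq start of each window, the Asns copy begins 23 bases upstream, the closest of the 7. Gene spans in GENCODE M21, the source of the gene coordinates here, can begin further upstream, and the stretches of Asns, Nupr1 and Vldlr lie partly or wholly inside them. The Slc7a11 stretch holds 2 copies, on opposite strands, while the other 6 genes hold 1 each. Slc7a3, Slc1a5, Slc7a5 and Eif4ebp1 had no window under their symbol.

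As deposited, the summed TPM of the set overlapped between the diets. In the 3 fasted libraries the 32 genes summed to 1264, 1267 and 1275 TPM, and in the 3 fed libraries to 1289, 1285 and 1265 TPM. Fasted replicates 2 and 3 lie between the fed libraries, so the sums overlap. They were not rescaled, and they weigh the most abundant genes most. Over all tested genes, the median log2 deviation from the gene's mean was 0.0071, 0.0098 and 0.0270 in fasted libraries. In fed libraries it was -0.0059, -0.0353 and -0.0032. Scaling by these medians would lower the fasted sums and raise the fed ones, so the overlap is stated for TPM as deposited only. On this length-corrected scale Asns was the most abundant member (mean 169.5 TPM), then Atf4 (153.1 TPM), Slc38a2 (143.0 TPM) and Slc3a2 (121.1 TPM), and the least abundant were Slc7a11 (0.631 TPM) and Stc2 (0.140 TPM).

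**Figure D1:**
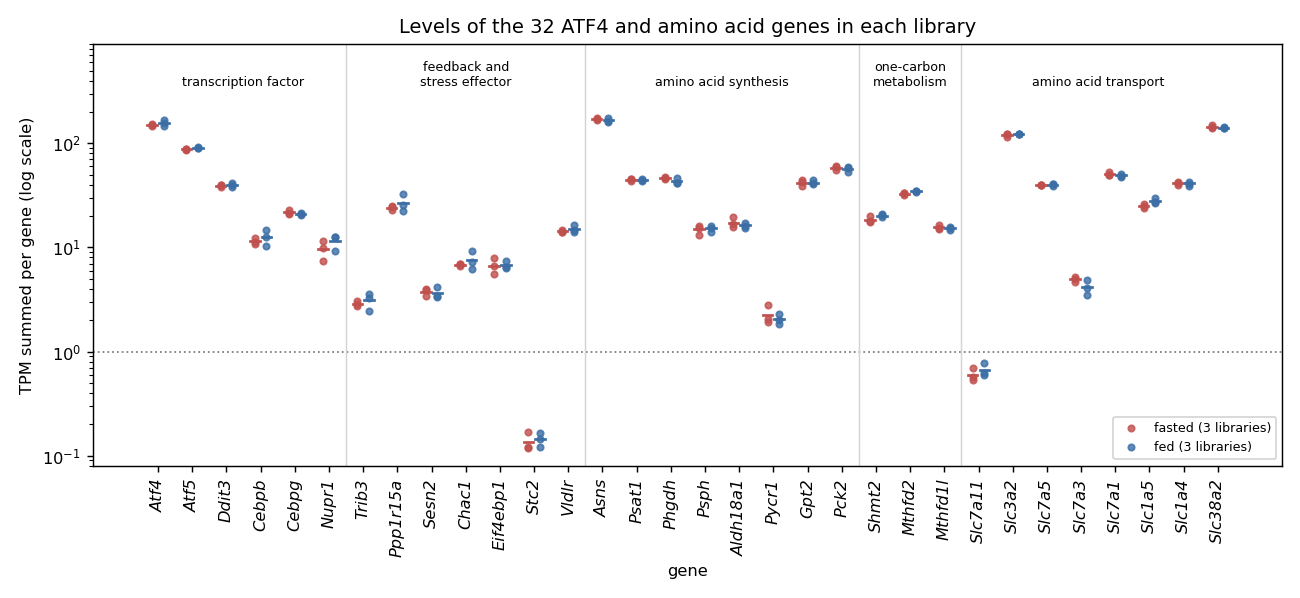
TPM summed per gene on a log axis for the 32 genes, ordered by role, with 1 point per library, a bar at the mean of each diet, and fasted left of fed. The dotted line marks 1 TPM, the lower limit for testing. Only Slc7a11 and Stc2 lie under it, and for nearly every gene the points of the 2 diets cover the same range.

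Each gene was compared between diets with limma on log2(TPM + 1), a scale that understates the change of low genes. No member passed an adjusted p of 0.05, and the smallest adjusted p was 0.478, for Slc1a5. Over all genes 1 passed, or 0.00662%. At an unadjusted p under 0.05, 1 member was lower and 0 were higher in fasted libraries, or 1 of 30 beside 3.22% of all tested genes lower and 6.72% higher. In 3 members, Atf5, Mthfd2 and Slc1a5, every fasted value lay under every fed value, beside 5.07% of all genes. The opposite order, every fasted value above every fed value, was found for 0 members and for 12.7% of all genes.

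By direction alone, 14 of the 30 were higher and 16 lower in fasted libraries, so 46.7% were higher, against 62.5% of all tested genes. The median log2 difference (fasted minus fed) was -0.0125 for the members and 0.0312 for all genes. Rescaling the libraries by median-of-ratios brought all genes to 50.9% higher and a median of 0.0019, and the members to 9 higher, 21 lower and a median of -0.0417. The gap between the members' median and that of all genes was -0.0437 as deposited and -0.0436 after rescaling, but -0.0123 without fed replicate 2 and -0.0617 without fed replicate 3. After rescaling, 3 members (Mthfd2, Shmt2 and Slc1a5) were lower at an unadjusted p under 0.05 and 0 higher, beside 4.86% of all genes lower and 3.76% higher. In 6, the same 3 with Atf5, Slc3a2 and Slc7a5, every fasted value lay under every fed one, beside 7.84% of all genes, and the opposite held for 0 members and 7.66% of all genes. On TPM as deposited, the sign of the members' median depended on 1 library. Without fed replicate 2 it was 0.0080, with 17 higher and 13 lower, beside a median of 0.0203 and 59.1% higher for all genes. In that setting 5 members were apart lower and 1 higher, beside 1273 and 2524 of 15095 genes. With any other library left out, the members' median ran from -0.0236 to -0.0052.

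The intervals show how large a difference in TPM + 1 these libraries could hide, and for low members a larger change of TPM itself could be hidden. With a pseudocount of 0.1 the standard error of Pycr1 was 0.1987 on the log2 scale, against 0.1413 with a pseudocount of 1. The 95% interval of the fold change lay wholly within 1.2-fold in either direction for 18 of the 30 members (60.0%), and for 52.4% of all tested genes. Within 1.5-fold lay 29 members (96.7%), all but Nupr1, and 90.4% of all genes. Both bounds were chosen after the values were seen. Spread within a diet was likewise small. The median within-diet SD on the log2 scale was 0.0715 over the 30 members and 0.0873 over all genes, and at 10 to 200 TPM it was 0.0615 for 24 members and 0.0715 for 8674 genes.

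**Figure D2:**
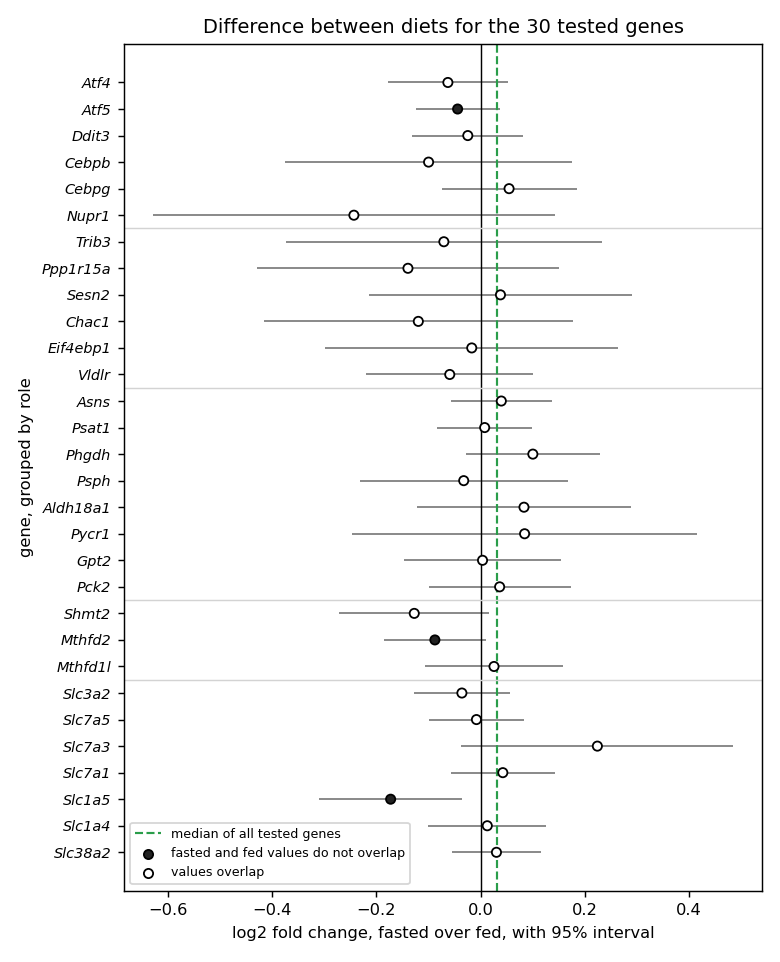
Log2 fold change, fasted over fed, of the 30 tested genes by role, with limma's 95% interval. The interval of Slc1a5 alone excludes 0. Filled points are the 3 genes whose fasted and fed values do not overlap, and the dashed line is the median of all tested genes, 0.0312.

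The 6 transcription factors had a median log2 difference of -0.0535, with 1 higher in fasted libraries and 5 lower, beside 62.5% of all genes higher. After median-of-ratios scaling the split was the same, with a median of -0.0848, beside 50.9%. Atf4, at the head of the pathway (chromosome 15, 80255184 to 80257541, plus strand, GRCm38), stood at 149.0, 146.1 and 153.9 TPM in fasted libraries, against 156.2, 165.7 and 147.7 TPM in fed libraries. The fasted values fall inside or just under the fed range, and the diets overlap. The fold change was 0.957, with a 95% interval from 0.884 to 1.04. Atf5, a related factor whose translation is controlled in the same way, was at 85.7, 88.7 and 89.1 TPM in fasted and 89.9, 91.3 and 90.5 TPM in fed libraries. It was the steadiest member, with a within-diet SD of 0.0228 on the log2 scale. All 3 fasted values lie below the fed ones, yet by a fold change of only 0.970, and limma's unadjusted p was 0.24 (adjusted p = 0.638).

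Ddit3 encodes CHOP, a factor induced by ATF4 that promotes cell death under lasting stress. Its level was 39.6, 39.8 and 38.2 TPM in fasted and 41.55, 40.0 and 38.3 TPM in fed libraries, which overlap. The dimer partners of ATF4 differed in direction. Cebpb averaged 11.5 ± 0.811 TPM in fasted and 12.5 ± 2.14 TPM in fed libraries, and Cebpg 21.9 ± 1.14 TPM in fasted and 20.99 ± 0.655 TPM in fed libraries (SD, n = 3 each). Neither difference exceeded the spread. Nupr1, a small stress-induced nuclear protein, had the widest spread of the set. It averaged 9.62 ± 2.05 TPM in fasted and 11.5 ± 1.89 TPM in fed libraries, and its fold change of 0.845 had an interval from 0.647 to 1.10.

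The feedback and stress effectors, 6 of them tested, had 1 higher and 5 lower and a median of -0.0649, beside 62.5% of all genes higher. After median-of-ratios scaling the split was the same, with a median of -0.0917, beside 50.9%. As deposited the split rested largely on fed replicate 2. Without it the log2 differences of Trib3, Ppp1r15a and Chac1 were 0.0164, 0.0071 and 0.0185. Trib3, a pseudokinase that inhibits ATF4, was low in both diets, at 2.73, 3.03 and 2.86 TPM in fasted and 3.27, 3.59 and 2.44 TPM in fed libraries. Fed libraries hold both its highest and its lowest value. Chac1, which breaks down glutathione and is among the most responsive ATF4 targets, was at 6.87, 6.998 and 6.64 TPM in fasted libraries, against 7.26, 9.31 and 6.24 TPM in fed libraries. The fasted values sit close together within the fed range. Sesn2, a leucine sensor that restrains mTORC1, was at 3.97, 3.43 and 3.88 TPM in fasted and 3.33, 4.19 and 3.41 TPM in fed libraries, again overlapping.

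Ppp1r15a encodes GADD34, the stress-induced subunit that directs a phosphatase to eIF2. It averaged 23.9 ± 1.07 TPM in fasted and 26.8 ± 5.31 TPM in fed libraries (SD, n = 3 each). The fed mean rests on replicate 2 at 32.6 TPM. The log2 difference was -0.14 with all libraries, and 0.0071 without that library. The other members of the group overlapped widely. Eif4ebp1, a repressor of cap-dependent translation, averaged 6.70 TPM in fasted and 6.74 TPM in fed libraries. Vldlr, a receptor for lipoproteins and reelin, averaged 14.3 and 14.9 TPM in fasted and fed libraries. Stc2, a secreted glycoprotein, stayed between 0.119 and 0.167 TPM in fasted and between 0.122 and 0.166 TPM in fed libraries.

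Of the 8 genes grouped under amino acid synthesis, 7 were higher in fasted libraries and 1 lower, with a median of 0.0381, close to the 0.0312 of all genes. After median-of-ratios scaling the split was 5 higher and 3 lower. Asns makes asparagine from aspartate and glutamine and is the classical target of amino acid limitation. It lies on chromosome 6, 7675169 to 7693254, minus strand (GRCm38), and its promoter element is the first of those printed above. It was at 174.5, 168.4 and 172.5 TPM in fasted libraries, against 175.4, 161.4 and 164.8 TPM in fed libraries. Fed replicate 1 exceeds all 3 fasted libraries, so the diets overlap. With a fold change of 1.03 and a 95% interval from 0.961 to 1.10, a change of Asns by more than 1.2-fold lies outside the interval in either direction.

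Serine is made from a glycolytic intermediate in 3 steps, by Phgdh, Psat1 and Psph in turn. Phgdh was at 45.9, 46.5 and 47.1 TPM in fasted libraries, against 42.0, 41.3 and 46.85 TPM in fed libraries. The fasted libraries were alike, whereas fed replicate 3 lay with them and the other two fed libraries lay lower. Its log2 difference was 0.10 (limma, adjusted p = 0.534), and 0.16 without fed replicate 3, where the adjusted p of 0.367 was the smallest of any member under any setting tried. Psat1 was at 45.4, 43.8 and 45.1 TPM in fasted and 45.1, 44.9 and 43.6 TPM in fed libraries. The diets share 1 range there, with a fold change of 1.00 and an interval from 0.944 to 1.07. Psph averaged 14.9 ± 1.45 TPM in fasted and 15.2 ± 1.10 TPM in fed libraries.

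Proline is made from glutamate by Aldh18a1, which averaged 17.3 ± 1.97 TPM in fasted and 16.2 ± 1.02 TPM in fed libraries, and then by Pycr1, at 2.25 ± 0.478 TPM in fasted and 2.05 ± 0.249 TPM in fed libraries (SD, n = 3 each). Gpt2, the mitochondrial alanine transaminase, averaged 42.0 TPM in fasted and 41.85 TPM in fed libraries. Pck2, the mitochondrial enzyme that forms phosphoenolpyruvate, was at 60.1, 59.5 and 55.5 TPM in fasted and 59.8, 52.7 and 58.2 TPM in fed libraries. None of these 4 genes differed beyond its spread, and in each the diets overlap.

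The mitochondrial folate enzymes pass the carbon unit of serine on to formate. Of these 3 genes, 1 was higher and 2 lower in fasted libraries, with a median of -0.0877, beside 62.5% of all genes higher. After median-of-ratios scaling 0 were higher and 3 lower, with a median of -0.1185, beside 50.9% of all genes higher. At an unadjusted p under 0.05, 2 were then lower, beside 4.86% of all genes. Mthfd2 (chromosome 6, 83305691 to 83325908, minus strand, GRCm38) was at 33.3, 31.6 and 33.02 TPM in fasted libraries, against 35.0, 34.4 and 34.9 TPM in fed libraries. Every fasted value lies below every fed value. The fold change was 0.941, with an interval from 0.880 to 1.01, and limma gave an unadjusted p of 0.0708 (adjusted p = 0.52). Shmt2, which feeds the pathway with serine, averaged 18.4 ± 1.19 TPM in fasted and 20.2 ± 0.779 TPM in fed libraries (SD, n = 3 each), with a log2 difference of -0.13. Mthfd1l, which releases formate, averaged 15.6 TPM in fasted and 15.3 TPM in fed libraries, both within the other's spread.

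Of the 7 tested transporters, 4 were higher and 3 lower, with a median of 0.0128. After median-of-ratios scaling 2 were higher and 5 lower, with a median of -0.0181. Slc1a5, the neutral amino acid exchanger ASCT2 that carries glutamine (chromosome 7, 16781340 to 16798274, plus strand, GRCm38), was the member with the smallest p. It was at 23.9, 25.8 and 24.7 TPM in fasted libraries, against 30.1, 27.5 and 26.8 TPM in fed libraries. The highest fasted value is below the lowest fed value. The log2 difference was -0.17, with a standard error of 0.06 and a fold change of 0.887 (95% interval 0.807 to 0.975). Limma's unadjusted p was 0.02, and the adjusted p of 0.478 did not pass. Leaving out fasted replicate 1 gave an unadjusted p of 0.0713, and leaving out fed replicate 1, the library with the highest value, 0.0646.

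Markers of some other cell types differed between the diets in the same direction as Slc1a5, though none passed (limma, smallest adjusted p = 0.395). The 14 macrophage markers summed to 82.8, 95.3 and 79.8 TPM in fasted libraries, against 116, 134 and 110 TPM in fed libraries, and all 14 had a lower mean log2 value in fasted libraries. The 11 endothelial markers summed to 192 to 210 TPM in fasted and 227 to 268 TPM in fed libraries, with 10 of 11 lower. At an unadjusted p under 0.05, 8 macrophage and 7 endothelial markers were lower, beside 3.22% of all genes. No marker of either list was at 0 in any library. Within the fed libraries, Slc1a5 was highest in replicate 1 and both marker sums were highest in replicate 2. All 9 skeletal muscle markers and all 13 mitochondrially encoded genes were lower in fasted libraries too, and all 5 erythrocyte markers were higher. The part of any of this RNA in the Slc1a5 values was not tested. In RNA of a mixed preparation, fewer cells of a type and less RNA per cell cannot be told apart.

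The other carriers overlapped between the diets. Slc38a2, a sodium-coupled carrier of small neutral amino acids that adapts to amino acid supply, was at 141.2, 143.1 and 149.3 TPM in fasted libraries, against 140.7, 139.5 and 144.1 TPM in fed libraries. Its fold change was 1.02, with an interval from 0.962 to 1.08. Slc3a2, the heavy chain shared by several exchangers, was at 114.1, 122.0 and 122.6 TPM in fasted and 123.2, 122.6 and 121.9 TPM in fed libraries. Only fasted replicate 1 stands below the rest.

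Slc7a5, the light chain that imports leucine with Slc3a2, averaged 39.7 ± 0.208 TPM in fasted and 39.9 ± 0.914 TPM in fed libraries (SD, n = 3 each). The cationic carrier Slc7a1 averaged 50.6 TPM in fasted and 49.1 TPM in fed libraries. Its relative Slc7a3 had the largest positive difference of the set, 0.22 on the log2 scale, at 4.97 ± 0.243 TPM in fasted and 4.13 ± 0.663 TPM in fed libraries. Fed replicate 1, at 4.82 TPM, lies inside the fasted range; without it the log2 difference was 0.32 (limma, adjusted p = 0.438). Slc1a4, an exchanger of alanine, serine and cysteine, averaged 41.5 TPM in fasted and 41.1 TPM in fed libraries. Slc7a11, the cystine importer, was at 0.531, 0.690 and 0.569 TPM in fasted libraries, against 0.626, 0.592 and 0.777 TPM in fed libraries, so the gene whose promoter stretch has 2 copies of the element was barely present in either diet.

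Genes with and without the promoter element had similar differences. Of the 6 tested genes with the motif, 3 were higher and 3 lower, with a median log2 difference of -0.0114. Of the 20 tested genes with a window and no motif, 10 were higher and 10 lower, with a median of -0.0105.

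Fed replicate 2 stood at an end of the range for most members. It held the highest value of the 6 libraries for 10 members, namely Atf4, Atf5, Cebpb, Nupr1, Trib3, Ppp1r15a, Sesn2, Chac1, Vldlr and Psph. It held the lowest for 9 others, among them Asns, Phgdh, Pck2 and 6 genes of transport and folate metabolism. The share of all tested genes with an extreme in this library was not counted. Some extremes were near ties, such as Nupr1 at 12.61 TPM against 12.6 TPM in fed replicate 3. Chac1 and Ppp1r15a show the pattern most clearly, at 9.31 and 32.6 TPM there against at most 7.26 and 25.4 TPM in any other library. Without it, the log2 differences of Cebpb, Trib3, Ppp1r15a and Chac1 lay between 0.0071 and 0.0185. The same library stood apart over all genes, at 31.2 on the first principal component (32.8% of the variance) against -17.7 to 1.4 for the others. Its 9 skeletal muscle markers summed to 3522 TPM, against 66.8 to 317.5 TPM in fasted libraries and 268.3 and 375.9 TPM in the other fed libraries. Its 13 mitochondrially encoded genes summed to 88600 TPM, against 47400 to 51480 TPM in fasted and 56210 and 67910 TPM in the other fed libraries. The part of that RNA in the member values was not tested.

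**Figure D3:**
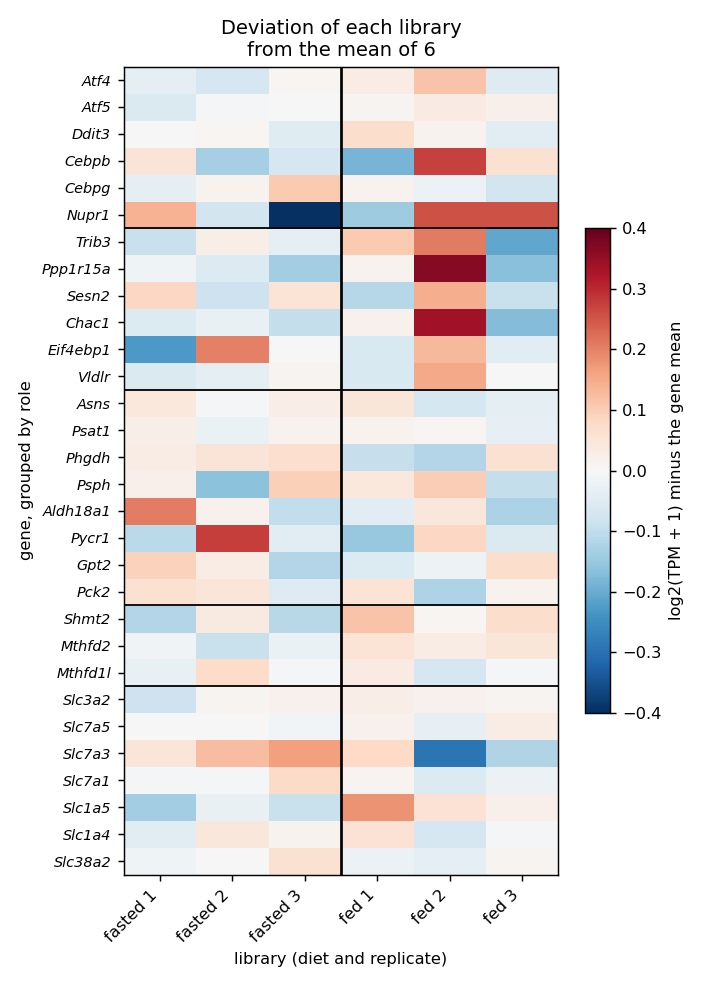
Deviation of each library from the gene's mean over 6 libraries, on the log2(TPM + 1) scale, for the 30 tested genes by role, with the fasted libraries left of the fed ones. Colours end at 0.4 in either direction. The column of fed replicate 2 is red for Cebpb, Nupr1, Trib3, Ppp1r15a and Chac1 and blue for Slc7a3. Nupr1 is as red in fed replicate 3 and is blue in fasted replicate 3, and Trib3 is blue in fed replicate 3. Most other cells are near white.

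The label of the tissue was borne out by its markers. All 17 sensory neuron markers were present in every library, summing to 24870 to 25980 TPM in fasted and 23970 to 25790 TPM in fed libraries. Satellite glial markers summed to 5936 to 6171 TPM in fasted and 5911 to 6689 TPM in fed libraries, and Schwann cell and myelin markers to 7708 to 8559 TPM in fasted and 7413 to 8277 TPM in fed libraries, so the values are those of neurons together with glia. Erythrocyte markers summed to 1715 to 3277 TPM in fasted and 1284 to 1564 TPM in fed libraries. Dissociation itself can induce stress genes, but both diets were dissociated, so comparing the diets cannot show that induction. Of 14 immediate early genes tested between diets, 11 were higher and 3 lower in fasted libraries, beside 62.5% of all genes higher. After median-of-ratios scaling the split was the same, beside 50.9%. As deposited 2, Egr3 and Jun, were higher at an unadjusted p under 0.05, beside 6.72% of all genes. Atf3, a stress factor that is also a target of ATF4, was at 6.70, 6.03 and 8.03 TPM in fasted libraries, against 13.0, 18.0 and 6.22 TPM in fed libraries, with its peak again in fed replicate 2.

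Since the table is given per transcript, the makeup of each gene could be compared too. The members had 162 transcripts, of which 61 reached a mean of 1 TPM. In 18 members a single transcript held at least 90% of the TPM, and in all 32 the leading transcript was coding. No transcript of a member passed (limma, smallest adjusted p = 0.657), while 9 of all 33197 tested transcripts did, or 0.0271%. At an unadjusted p under 0.05, 1 of the 61 was lower and 1 higher, beside 2.71% and 4.49% of all transcripts. The diets did not overlap in 4 lower and 1 higher of the 61, beside 4.98% and 9.38% of all transcripts.

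The lower transcript was Slc1a5-201, the main coding form of the carrier. It was at 13.9, 14.2 and 14.8 TPM in fasted libraries, against 21.1, 16.3 and 18.2 TPM in fed libraries. Every fasted value lies below every fed value, and the log2 difference was -0.34 (limma, adjusted p = 0.657). The intron-retaining form Slc1a5-202 was at 7.57, 8.57 and 6.44 TPM in fasted and 5.09, 8.71 and 7.18 TPM in fed libraries, which overlap. The coding form made up 58.2%, 55.0% and 59.8% of the gene in fasted libraries and 70.2%, 59.1% and 67.9% in fed libraries, with fed replicate 2 inside the fasted range.

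The higher transcript was Aldh18a1-207, a minor coding form of the proline enzyme. It was at 2.50, 3.64 and 5.31 TPM in fasted libraries, against 2.62, 0.969 and 0.785 TPM in fed libraries, and fed replicate 1 exceeds fasted replicate 1. Its log2 difference was 1.00 (limma, adjusted p = 0.671). The main form Aldh18a1-201 made up 64.5%, 69.7% and 62.4% of the gene in fasted libraries, against 73.4%, 81.1% and 85.4% in fed libraries, with no overlap. Shares of alternative forms moved as much within a diet. Slc1a4-201 was at 9.56, 18.3 and 5.79 TPM in fasted libraries and at 7.89, 11.2 and 0 TPM in fed libraries, while the gene's total stayed near 41 TPM.

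**Figure D4:**
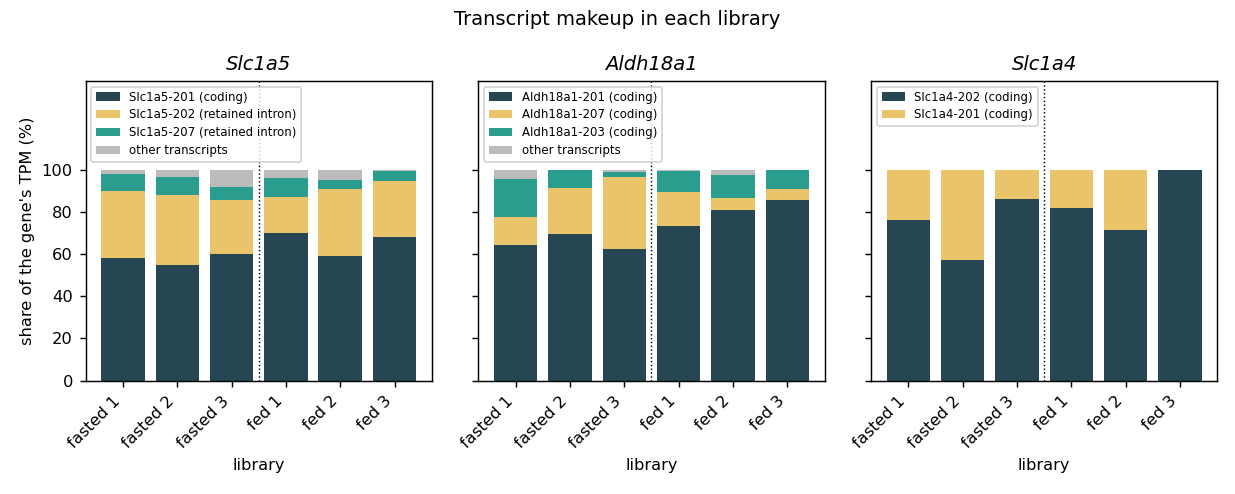
Share of each gene's TPM, in percent, taken by its transcripts in each library, for Slc1a5, Aldh18a1 and Slc1a4, with fasted libraries left of the dotted line and fed libraries right of it. The main Aldh18a1 form takes 62.4% to 69.7% in fasted and 73.4% to 85.4% in fed libraries, whereas the shares of the other two genes overlap between diets.

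Reads of near-identical copies could be split between genes by the authors' quantification. Phgdh had 18 such copies, with 90.4% to 98.7% identity, but together they held only 0.174 TPM in fasted and 0.201 TPM in fed libraries. For Slc7a11 the 1 copy, B020010K11Rik, with 95.4% identity, held 0.874 TPM in fasted and 0.771 TPM in fed libraries, more than Slc7a11 itself, so the level of that gene is uncertain. Eif4ebp1, Gpt2, Psat1 and Shmt2 had 1 copy each, at or close to 0 TPM.

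The machinery around ATF4 was compared with the same fit. In none of the 5 lists did a gene pass (limma, smallest adjusted p = 0.423). Of the 17 genes for the eIF2 kinases, eIF2, its exchange factor eIF2B and the phosphatase, 12 were higher and 5 lower, with a median log2 difference of 0.0354, and 2 were higher at an unadjusted p under 0.05, beside 62.5% of all genes of positive sign and 6.72% higher at that p. After median-of-ratios scaling the split was 11 higher and 6 lower, the median 0.0046, and 1 was higher at that p. The 2 genes as deposited were Eif2b3 and, with the smallest p, Ppp1r15b, the constitutive counterpart of Ppp1r15a. It was at 25.3, 25.1 and 24.4 TPM in fasted libraries, against 21.9, 21.01 and 22.5 TPM in fed libraries. These do not overlap. Eif2b3, a subunit of the exchange factor, averaged 20.6 ± 1.66 TPM in fasted and 18.1 ± 0.699 TPM in fed libraries (SD, n = 3 each).

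The cytosolic aminoacyl-tRNA synthetases, which charge tRNA with amino acids and are in part ATF4 targets, were mostly higher in fasted libraries. Of 20, 19 were higher and only Cars was lower, with a median of 0.0738, beside 62.5% of all genes higher. After median-of-ratios scaling 17 were higher and 3 lower, with a median of 0.0426, beside 50.9% of all genes higher. In 5 of 20 the fasted values all exceeded the fed ones, beside 12.7% of all genes. After that scaling it was 4 of 20, beside 7.66%, and in 1 the order was opposite, beside 7.84%. The smallest p was that of Qars, for glutamine. It was the 1 gene of 20 with an unadjusted p under 0.05, beside 6.72% of all genes higher at that p. Its level was 58.6, 60.6 and 57.8 TPM in fasted libraries, against 54.3, 49.9 and 53.5 TPM in fed libraries. Next came Hars, at 153.5 ± 0.739 TPM in fasted and 145.2 ± 4.21 TPM in fed libraries, Farsb, and Dars.

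Of 25 listed targets of ATF4 outside the set, only 18 reached a mean of 1 TPM and were tested. Among these 18, 10 were higher and 8 lower, with a median of 0.0185. At an unadjusted p under 0.05, 2, Ddit4 and Herpud1, were higher, beside 6.72% of all genes. After median-of-ratios scaling 8 were higher and 10 lower, with a median of -0.0125 and 1 higher at that p. Ddit4, a stress-induced inhibitor of mTORC1 that several other stress factors also control, had the smallest p. It was at 119.2, 114.3 and 113.9 TPM in fasted libraries, against 69.7, 115.5 and 73.4 TPM in fed libraries. Fed replicate 2 lies with the fasted libraries, and the other two fed libraries lie well below. The log2 difference was 0.46 (limma, adjusted p = 0.492). Leaving out fed replicate 2, the fed library with the high value, gave 0.69 with an adjusted p of 0.0282. Leaving out fed replicate 1 or 3 gave 0.33 (unadjusted p = 0.103) and 0.36 (unadjusted p = 0.0987). Leaving out a fasted library gave unadjusted p-values from 0.0594 to 0.0727. With all libraries limma's unadjusted p ranged from 0.00517 with array weights to 0.0815 with robust empirical Bayes. The unadjusted call thus depended on the libraries kept and on the setting. The adjusted p under 0.05 came only with fed replicate 2 left out. Herpud1, of endoplasmic reticulum degradation, averaged 53.0 ± 1.72 TPM in fasted and 49.1 ± 1.35 TPM in fed libraries. Mthfd1, the cytosolic folate enzyme, averaged 21.95 ± 1.86 TPM in fasted and 19.6 ± 0.319 TPM in fed libraries (SD, n = 3 each).

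The list of the unfolded protein response outside ATF4 holds chaperones of the endoplasmic reticulum and other genes of that response, among them Atf6, Ern1 and Xbp1. Of its 20 genes, 9 were higher and 11 lower with fasting, with a median of -0.0294, and 4 were lower at an unadjusted p under 0.05, beside 3.22% of all genes. After median-of-ratios scaling 4 were higher and 16 lower, with a median of -0.0596 and 6 lower at that p, beside 4.86% of all genes. Without fed replicate 2 the split was 5 higher and 15 lower. The first, the chaperone Hsp90b1, was at 242.8, 243.5 and 243.4 TPM in fasted libraries, against 271.5, 267.5 and 254.4 TPM in fed libraries. The calcium-binding chaperone Calr averaged 277.6 ± 3.83 TPM in fasted and 302.1 ± 19.4 TPM in fed libraries, with Sdf2l1 and Dnajb11 in the same direction. Of 18 genes of mTORC1 and the GATOR complexes, which relay amino acid supply to growth, 15 were higher and 3 lower, with a median of 0.0569. At an unadjusted p under 0.05, 4 were higher, beside 6.72% of all genes. Ddit4, already counted among the ATF4 targets above, is 1 of these 4. After rescaling the split was 11 higher and 7 lower, and 3 were higher at that p, beside 3.76% of all genes. Rraga, a GTPase that recruits mTORC1 to lysosomes, averaged 191.6 ± 2.40 TPM in fasted and 176.8 ± 5.13 TPM in fed libraries. Depdc5, a subunit of the inhibitory GATOR complex, averaged 64.2 ± 2.83 TPM in fasted and 55.0 ± 5.15 TPM in fed libraries (SD, n = 3 each).

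**Figure D5:**
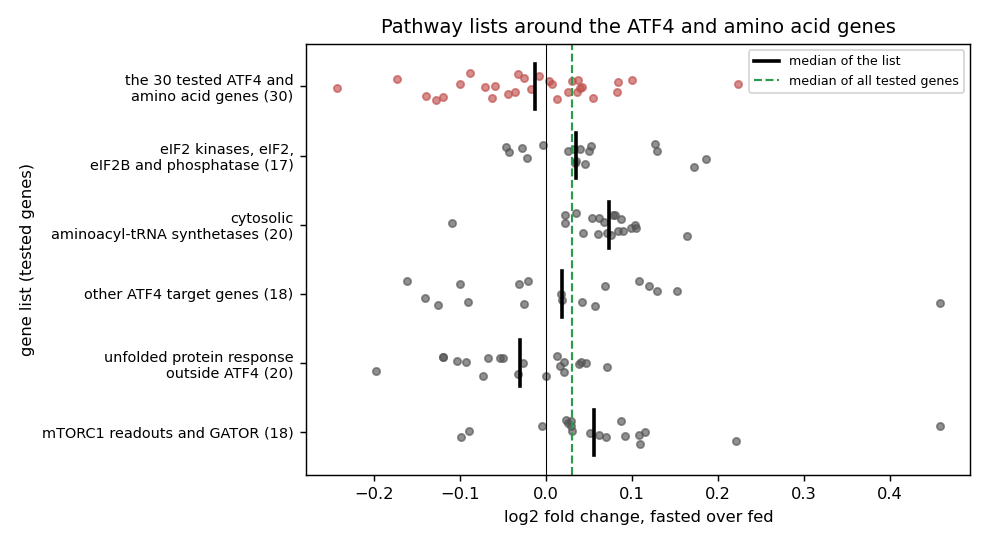
Log2 fold change, fasted over fed, of each tested gene in the ATF4 set and in 5 lists around it, with a black bar at the list's median and a dashed line at the median of all tested genes, 0.0312. The synthetases lie right of 0 except Cars, and Ddit4 is the point at 0.46 in both lists that hold it.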

How the data were processed

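The authors deposited a table of TPM for each transcript in 3 fasted and 3 fed libraries. Their processing notes, as given by the submitters, name Salmon 1.6.0, a transcript quantifier, together with Trim Galore 0.6.6, FastQC 0.11.9, DESeq2 1.34.0 and the genome builds GRCm38 and mm10. The order of these steps and the annotation release are not given in the sources used here. Per the labels' protocols, libraries were made with a stranded kit from polyadenylated RNA. TPM is a share of each library's transcripts, so a change in abundant RNA shifts all other values. Sequencing depth cannot be read from TPM and is unknown here, so count tests were not applied.

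TPM was summed per gene symbol over 140992 transcripts. Genes and transcripts with a mean of at least 1 TPM were tested on log2(TPM + 1), a pseudocount of 1, with limma 3.58.1 in R 4.3.3: a two-sided test of diet alone with trended empirical Bayes, Benjamini-Hochberg adjustment over all tested features and a threshold of 0.05. The 95% intervals come from that fit. The procedure was tested on simulated data. An exact permutation test of 3 against 3 libraries cannot go below 0.1 and was not used.

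Members, gene lists and named genes were chosen with earlier results of these data known. All members are named. Values in every library are given for members with an unadjusted p under 0.05 or no overlap, the 6 most abundant and the usual readouts of the pathway, and up to 4 genes are named from each other list. Egr3, Jun and Atf3 are the 3 with the smallest p in the immediate early list. Cars was named after its value was seen.

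Gene coordinates and transcript types came from GENCODE M21 (GRCm38), promoters from RefSeq (GRCm38.p6). Near-identical copies were sought with BLAST 2.17.0 (at least 90% identity over 200 bases). Figures were drawn with matplotlib 3.10.9. Alternatives were no filter on low genes, a minimum mean of 5 TPM, pseudocounts of 0.1 and 0.5, 4 rescalings, 2 other empirical Bayes settings, array weights, a replicate block, and leaving out each library.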

Additional observations from a re-analysis of the deposited data

How the results depend on the processing

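No member passed an adjusted p of 0.05 in any of the 12 alternatives with all libraries or the 6 with a library left out; the smallest adjusted p was 0.367. The median log2 difference of the members, -0.0125 as deposited, was -0.0417 with median-of-ratios, -0.0409 with TMM-type and -0.0342 with quantile scaling and -0.0431 without mitochondrially encoded genes, and ranged from -0.0236 to 0.0080 with a library left out. By direction alone 9 members were higher and 21 lower under each of those 4 rescalings, beside 50.5% to 54.7% of all genes higher. At an unadjusted p under 0.05, 3 members were lower and 0 higher under each of the 4. Of all genes, 661 to 748 were lower and 556 to 663 higher at that p there. With no filter 2 members were lower, beside 802 of 29760 genes. With a library left out 0 to 2 were lower and 0 to 1 higher, beside 382 to 617 genes lower and 593 to 1189 higher. Groups did not overlap, lower in fasted, for 6 members under median-of-ratios and TMM-type scaling and without mitochondrially encoded genes. Of all genes, 1162 to 1206 were apart in that direction in these settings. With a library left out 3 to 9 members were apart lower and 0 to 3 higher. Among the 15092 to 15096 genes then tested, 1231 to 1546 were apart lower and 2524 to 3403 higher. The 9 came without fed replicate 3, beside 1546 of 15093 genes.

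Over all genes, 1 passed as deposited, 2 at pseudocounts of 0.1 and 0.5, 0 with no filter (where 1281 were higher and 802 lower at an unadjusted p under 0.05), and 1 to 6 with a library left out. Over all transcripts 9 passed, 4 at a mean of at least 5 TPM, 0 with the replicate block and 5 to 14 with a library left out. Of the members' transcripts 2 had an unadjusted p under 0.05, beside 901 lower and 1491 higher of all 33197. It was 1 at a mean of at least 5 TPM and 1 to 4 with a library left out. No share of all transcripts is given for those settings, so these counts are not read further.

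Members with a difference near 0 changed sign with the scaling. In the order median-of-ratios, TMM-type, quantile and without mitochondrially encoded genes, Psat1 had -0.0231, -0.0222, -0.0334 and -0.0243, Gpt2 -0.0272, -0.0263, -0.0263 and -0.0284, and Slc1a4 -0.0181, -0.0172, -0.0217 and -0.0192 (-0.0021 with array weights). Leaving out quantile, Mthfd1l had -0.0040, -0.0031 and -0.0051 and Slc38a2 -0.0010, -0.0001 and -0.0022. With quantile scaling alone Asns had -0.0028 and Pck2 -0.0002. Leaving out 1 library changed the sign of 16 members: Ddit3 ranged from -0.054 to 0.0037, Cebpb from -0.218 to 0.0124, Trib3 from -0.1925 to 0.0164, Ppp1r15a from -0.2583 to 0.0071, Sesn2 from -0.0098 to 0.1204, Chac1 from -0.236 to 0.0185, Eif4ebp1 from -0.1221 to 0.093, Vldlr from -0.1048 to 0.0013, Psat1 from -0.0073 to 0.0231, Psph from -0.0882 to 0.0421, Pycr1 from -0.0327 to 0.1593, Gpt2 from -0.0413 to 0.063, Pck2 from -0.0164 to 0.0725, Mthfd1l from -0.0042 to 0.0488, Slc7a5 from -0.0263 to 0.0044 and Slc1a4 from -0.018 to 0.0442. The cause was not tested.

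Replicate numbers are shared by the diets, but no label ties a number to a litter or day. Deviations of same-numbered libraries correlated at 0.093, 0.114 and 0.066 across genes, and each library correlated best with its own number, a hint from the data only. The replicate block left the counts at 14 higher and 16 lower, with 1 gene passing and a smallest member adjusted p of 0.429. At an unadjusted p under 0.05, 1 member was lower, beside 565 of 15097 genes. Apart and lower in fasted were 3 members, beside 765 genes. TPM keeps no depth, so the precision of low genes such as Slc7a11 and Stc2 cannot be given.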
